A study of Mus musculus with 13 samples.

Results

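The genes described here carry signals from death receptors at the cell surface to caspases, to the kinases of necroptosis and to proteins that open the plasma membrane. The 10 genes were chosen by name: the receptor genes *Fas*, *Tnfrsf10b* and *Tnfrsf1a*, the adaptor and protease genes *Fadd* and *Casp8*, the kinase genes *Ripk1* and *Ripk3*, the sensor gene *Zbp1*, and the membrane effector genes *Mlkl* and *Gsdmd*. Of the 10, 9 were matched among the 13222 genes measured. All 9 were among the 12319 genes with enough reads to be tested, and *Ripk3* was not analysed here.

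Cells of 4T1-Thy1.1, a line of the BALB/c mammary carcinoma 4T1 that carries a Thy1.1 transgene, were grown, by the sample labels, in DMEM/F12 medium with serum to ask how IL-17A alters the response to doxorubicin (DOX). Control cells received neither agent (n = 3), DOX cells received 200 ng/mL doxorubicin (n = 4), IL-17A cells received 25 ng/mL recombinant mouse IL-17A (n = 3), and DOX+IL-17A cells received both at those doses (n = 3), each for 48 h before RNA isolation. Sequencing covered the 3' ends of mRNA in 13 libraries of 4445592 to 16930600 reads on the listed genes. Values are TMM-scaled CPM (reads scaled to library size), written below as normalised values, and 1 read was worth 0.0609 to 0.2045 of them depending on the library.

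FAS and TNFRSF10B, the receptors of FAS ligand and TRAIL, recruit the adaptor FADD and the protease caspase-8, which starts apoptosis. TNFRSF1A, the main TNF receptor, assembles a complex on the kinase RIPK1, from which cells can survive, undergo apoptosis or, where caspase-8 is inactive, undergo necroptosis through RIPK3 and the pore-forming pseudokinase MLKL. ZBP1, an interferon-inducible sensor of Z-form nucleic acids, can also engage RIPK3, and gasdermin D forms the pores of pyroptosis.

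Before the genes are described, some libraries need mention. On the second principal component of all tested genes, control replicate 1 had a score of 74.7, while the other 12 libraries lay between -42.9 and 23.4. The same library had the highest normalised value of *Thy1* (178.6, against 63.6 to 103.6 elsewhere), in which reads of the transgene and of the cell's own gene are not separated. DOX replicate 1 had a summed normalised value of 204.7 over 6 of 6 skeletal muscle markers, with *Myh4* the most abundant, against 3.30 to 27.9 in the other libraries, and of 66.5 over the 3 of 5 red blood cell markers matched, with *Hba-a2* the most abundant, against 0 to 14.4. Epithelial markers were all present (7 of 7), with *Krt7* the most abundant. Their sums were 1973 to 2287 in control, 1741 to 2089 in IL-17A, 1029 to 1093 in DOX and 870.3 to 1143 in DOX+IL-17A, lower in every library with DOX than in any without it. Of the 7, limma called *Epcam* and *Krt19* lower with DOX against control, and these and *Krt18* lower with DOX+IL-17A against control. *Krt14* had the opposite order, with 38.6 to 43.6 in control, 24.3 to 39.2 in IL-17A, 52 to 121.8 in DOX and 54.7 to 110.1 in DOX+IL-17A. In limma *Krt14* was under 2-fold against control and was called higher with DOX+IL-17A against IL-17A (adjusted p = 0.027), a call lost without DOX+IL-17A replicate 2 (0.056) or 5 (0.1) or IL-17A replicate 2 (0.093) or 3 (0.068). In that comparison *Epcam*, *Krt18* and *Krt19* were called lower, *Krt18* not without DOX+IL-17A replicate 3 (-0.98, under 2-fold). The markers named here and below were chosen after their values were seen.

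The summed value of the 4 of 8 leukocyte markers matched was 27.1 to 51.4 in the 4 DOX libraries and 10.6 to 21.3 in the other 9. The most abundant of them was *Csf1r*, at 14.1 to 16.7 in control, 16.6 to 35 in DOX, 2.48 to 9.55 in DOX+IL-17A and 2.14 to 7.07 in IL-17A, which limma did not call. *Cd68* rose with DOX against control in limma (adjusted p = 0.016) but was not called by voom with limma (adjusted p = 0.056) or edgeR (adjusted p = 0.075). The defining marker *Ptprc* (CD45) had another order, with 2.45 to 3.58 in DOX+IL-17A, 0.644 to 1.42 in DOX, 0.0609 to 1.52 in control and 0 to 0.314 in IL-17A. *Ptprc* rose with DOX+IL-17A against control in limma (adjusted p = 0.022), a call lost with edgeR (adjusted p = 0.16), DESeq2 (0.085), a pseudocount of 0.1 (0.061) and a fit of only these groups (0.11), and without control replicate 3 (0.088), control replicate 5 (0.069) or DOX+IL-17A replicate 3 (0.07). With DOX+IL-17A against IL-17A it was also called higher (adjusted p = 0.0074), and that call was kept under all alternatives. Fibroblast markers (4 of 5 matched) summed to 23.7 to 105.4, led by *Col1a1*. Among them *Dcn* was at 0.169 to 0.304 in control, 0.438 to 2.58 in DOX, 1.43 to 2.43 in DOX+IL-17A and 0 to 0.113 in IL-17A, from at most 39 reads, and limma called it higher with DOX+IL-17A against control (adjusted p = 0.026) and against IL-17A (adjusted p = 0.016). The first of these *Dcn* calls was lost without control replicate 5 (adjusted p = 0.068), DOX+IL-17A replicate 3 (0.074) or 5 (0.065) and in a fit of only these groups (0.08), and the second without DOX+IL-17A replicate 3 (0.05) or IL-17A replicate 3 (0.059). *Pdgfra*, a more abundant fibroblast marker, had another order, with 15.4 to 30.1 in control, 17.4 to 24.8 in IL-17A, 8.39 to 14 in DOX and 5.86 to 14.7 in DOX+IL-17A, and limma did not call it. The only matched hepatocyte marker of 3, *Alb*, was at 0 to 2.25, and 0 of 3 endothelial markers were matched. Whether any of these differences had a part in the results below was not tested, and values without each library in turn are given where they change a call. In bulk RNA, a higher transcript level in each cell and a larger share of cells with the transcript cannot be told apart.

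Differences are log2 fold changes on the log2(value + 1) scale with their standard error (SE), from limma with trend fitted to all 13 libraries, and calling a gene required a fold change of more than 2 together with an adjusted p below 0.05. With DOX against control, 3 of the 9 genes were called higher (*Zbp1*, *Fas* and *Tnfrsf10b*) and 0 lower, where 9.15% of all tested genes were called higher and 6.18% lower. The same 3 genes were called higher and 0 lower with DOX+IL-17A against control, beside 6.95% and 5.95% of all genes. Between DOX+IL-17A and DOX, 0 were called higher and 1, *Zbp1*, was called lower, beside 0.114% and 0.325% of all genes. With DOX+IL-17A against IL-17A, *Zbp1* alone was called higher and 0 genes lower, beside 4.92% of all genes higher and 4.92% lower.

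With IL-17A against control, limma called 0 of 9 genes, beside 0.00812% of all genes higher and 0% lower. At an unadjusted p under 0.05 the count was 1, *Fas*, and voom with limma, edgeR and DESeq2 on the recovered reads each called 0 of 9. An interaction of DOX and IL-17A was called for 0 of 9 genes and 0% of all genes by limma, with 1 of 9 (*Zbp1*) at an unadjusted p under 0.05. For the interaction voom with limma and edgeR also called 0 of 9, and DESeq2 called 1, *Zbp1*. Because the 9 genes were chosen with earlier results known, and because the comparisons share their control or DOX libraries, nothing is read from these counts beyond each gene's own values.

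**Figure D1:**
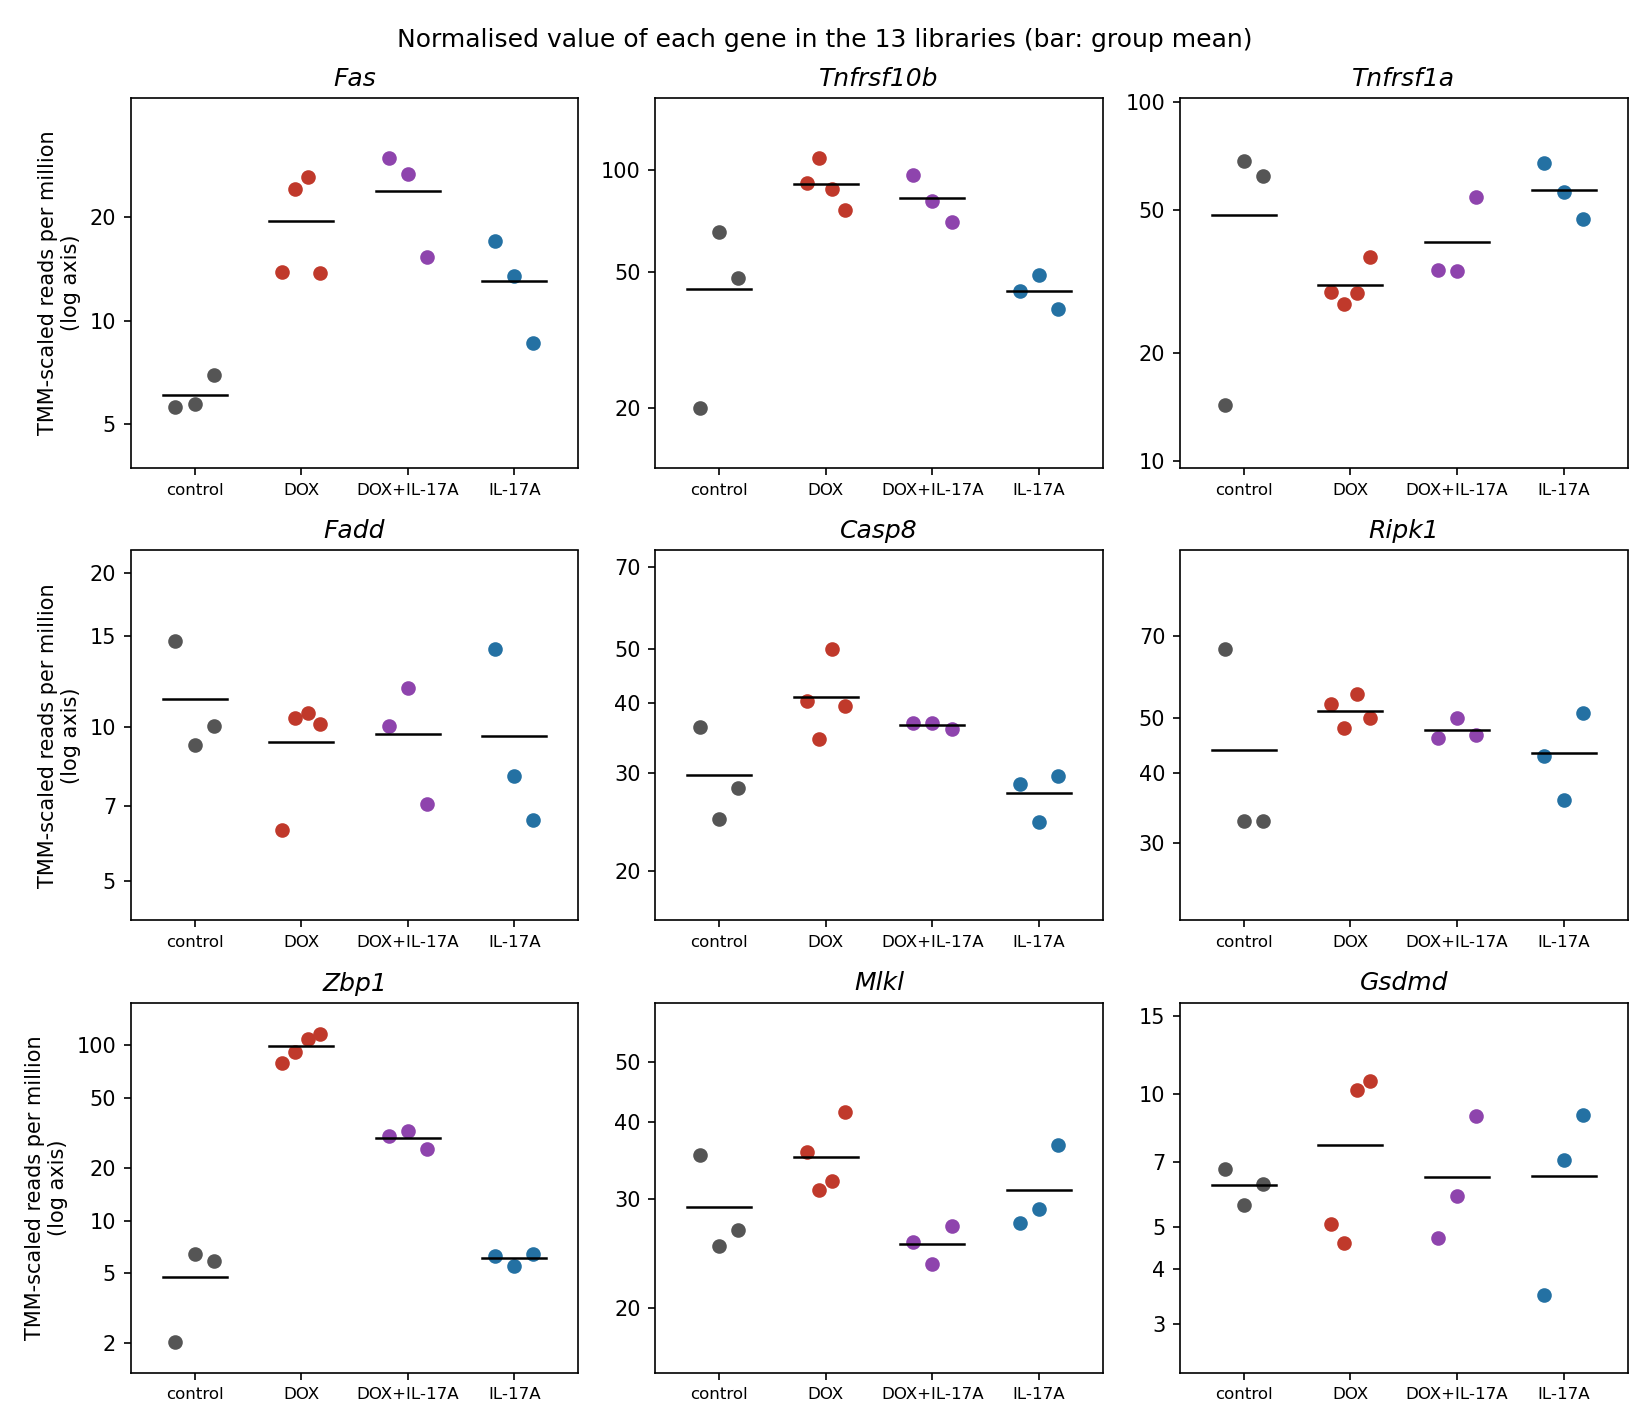
Normalised value of each of the 9 genes (log axis, TMM-scaled CPM) in the 13 libraries by condition, with replicates in order from left to right, points for libraries and bars for group means. *Zbp1* lies at 79.2 to 116.2 in DOX and 25.7 to 32.6 in DOX+IL-17A, above the 6 libraries without DOX, and *Tnfrsf1a* has a single control library at 14.4.

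*Fas* encodes the receptor of FAS ligand. Its normalised values were 5.58, 5.72 and 6.95 in control replicates 1, 3 and 5. They were 13.8, 24.2, 26.1 and 13.8 in DOX replicates 1 to 4. All 4 DOX libraries were above all 3 control libraries, and inside the DOX group replicates 1 and 4 lay at little more than the level of IL-17A replicate 3. The values were 29.7, 26.7 and 15.4 in DOX+IL-17A replicates 2, 3 and 5, and 17, 13.5 and 8.61 in IL-17A replicates 2, 3 and 5. Replicate 5 was the lowest of its group in both conditions with IL-17A, and every library with any treatment was above every control library. The order of the group means was control (6.09 ± 0.755, SD, n = 3), IL-17A (13.1 ± 4.22, SD, n = 3), DOX (19.5 ± 6.61, SD, n = 4) and DOX+IL-17A (23.9 ± 7.55, SD, n = 3), and each neighbouring pair of treated groups overlapped.

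*Fas* rose with DOX against control by 1.48 on the log2 scale (SE 0.33, limma adjusted p = 0.0062) and with DOX+IL-17A against control by 1.77 (SE 0.36, adjusted p = 0.0041). These calls were kept without any single library. For IL-17A against control the groups did not overlap (exact permutation p = 0.1, 2-sided, the smallest that 3 against 3 allows), and the log2 fold change of 0.95 (SE 0.36) was not called in limma (p = 0.018, adjusted p = 0.96). DOX+IL-17A differed from DOX by 0.29 (95% confidence interval -0.42 to 0.997) and from IL-17A by 0.82 (0.07 to 1.58, limma adjusted p = 0.14). The interaction of DOX and IL-17A in *Fas* was -0.66 (-1.69 to 0.38).

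In GRCm38 (mm10) the *Fas* gene lies at chr19:34290666-34327772 on the plus strand, with *Gm27818* overlapping it on that strand. The promoter of *Fas* is shown because, among the genes that were called, it is the one for which RefSeq promoter sequence was at hand, with the 250 bases before the start site at chr19:34290409-34290658 (GRCm38.p6, plus strand).
Fas: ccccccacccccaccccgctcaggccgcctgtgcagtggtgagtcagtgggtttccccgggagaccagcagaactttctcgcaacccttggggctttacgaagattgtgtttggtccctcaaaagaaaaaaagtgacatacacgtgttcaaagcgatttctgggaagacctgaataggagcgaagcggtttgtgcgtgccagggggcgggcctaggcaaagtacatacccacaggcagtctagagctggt
Motifs searched on both strands were the core of the interferon-stimulated response element (ISRE), a 10-base unit of the p53 site and the NF-kB site. The full p53 site was not searched.
No match to any of them was found in the 300 bases around this start site, which says only that those letters are not in that window. The motifs were present in 3.44%, 8.36% and 8.46% of all 32851 promoters of 300 bases, in that order.

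*Tnfrsf10b* encodes the TRAIL receptor. Its normalised values were 20, 65.5 and 48.0 in control replicates 1, 3 and 5. In DOX replicates 1 to 4 they were 91.5, 108.2, 87.9 and 75.9. The 4 DOX libraries were above all 3 control libraries, and control replicate 1 was the lowest of all 13 libraries. The values were 96.5, 80.9 and 70.1 in DOX+IL-17A replicates 2, 3 and 5, and 43.9, 49.2 and 39.1 in IL-17A replicates 2, 3 and 5. The libraries with DOX, alone or with IL-17A, did not overlap those without it, and within either pair the groups overlapped.

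*Tnfrsf10b* rose with DOX against control by 1.16 (SE 0.30, limma adjusted p = 0.014) and with DOX+IL-17A against control by 1.02 (SE 0.33, adjusted p = 0.041). Without control replicate 1 these values were 0.68 (adjusted p = 0.032) and 0.54 (adjusted p = 0.10), under the 2-fold threshold in both. The second call lies close to the threshold of p and was kept only without control replicate 3 or IL-17A replicate 5. The adjusted p was 0.057 without control replicate 5, 0.057, 0.051, 0.057 and 0.054 without DOX replicates 1 to 4, 0.13, 0.096 and 0.054 without DOX+IL-17A replicates 2, 3 and 5, and 0.051 and 0.053 without IL-17A replicates 2 and 3. A fit of only these groups (adjusted p = 0.16), voom with limma (adjusted p = 0.061), edgeR (adjusted p = 0.07) and DESeq2 (0.88, under 2-fold) did not call it, and DESeq2 also put the first value under 2-fold (0.995). DOX+IL-17A differed from DOX by -0.14 (95% confidence interval -0.78 to 0.51), and from IL-17A by 0.88 (0.19 to 1.57, limma adjusted p = 0.084). The gene lies at chr14:69767472-69784411 on the plus strand.

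*Tnfrsf1a* encodes the main TNF receptor. Its normalised values were 14.4, 68.3 and 62.4 in control replicates 1, 3 and 5. They were 29.5, 27.4, 29.4 and 37.1 in DOX replicates 1 to 4. Control replicate 1 was below every DOX library and the other control libraries were above them all, so the groups overlapped through that library. The values were 34, 33.8 and 54.4 in DOX+IL-17A replicates 2, 3 and 5, and 67.6, 56.3 and 47.1 in IL-17A replicates 2, 3 and 5. Replicate 5 was the highest DOX+IL-17A library and the lowest IL-17A library, and these groups overlapped through it.

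The log2 fold change of *Tnfrsf1a* with DOX against control was -0.36 (SE 0.40, limma adjusted p = 0.54). Without control replicate 1 it was -1.07 (adjusted p = 0.0053), which is past both thresholds, and without control replicate 3 it was 0.02. The difference between DOX+IL-17A and DOX was 0.36 (95% confidence interval -0.49 to 1.22). The gene lies at chr6:125349362-125362484 on the plus strand.

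*Fadd* encodes the adaptor that links FAS and the TRAIL receptor to caspase-8. Normalised values were 14.7, 9.19 and 10 in control replicates 1, 3 and 5, and 6.28, 10.4, 10.6 and 10.1 in DOX replicates 1 to 4. DOX replicate 1 stood below the other DOX libraries, which lay between control replicates 3 and 1. The values were 10, 11.9 and 7.05 in DOX+IL-17A replicates 2, 3 and 5, and 14.2, 8.02 and 6.56 in IL-17A replicates 2, 3 and 5. All 4 groups overlapped. Its log2 fold change was -0.25 (SE 0.33) with DOX against control and 0.04 (SE 0.33) with DOX+IL-17A against DOX, and neither was called. *Fadd* (chr7:144577318-144582463, minus strand) is overlapped by *Faddos* on the opposite strand.

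*Casp8* encodes caspase-8, whose activity also restrains necroptosis. In normalised values it was at 36.2, 24.8 and 28.2 in control replicates 1, 3 and 5, and 40.4, 34.5, 50.1 and 39.5 in DOX replicates 1 to 4. The DOX libraries lay at the top, with overlap between DOX replicate 2 and control replicate 1. The values were 36.8, 36.9 and 36.0 in DOX+IL-17A replicates 2, 3 and 5, and 28.7, 24.5 and 29.7 in IL-17A replicates 2, 3 and 5. The DOX+IL-17A libraries were close together and above all 3 IL-17A libraries. With DOX against control the log2 fold change of 0.46 (SE 0.21, limma adjusted p = 0.13) was not called, and with DOX+IL-17A against DOX it was -0.15 (SE 0.21). *Casp8* lies at chr1:58795374-58847503 on the plus strand and is overlapped by *Gm37760* on that strand.

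*Ripk1* encodes the kinase of the TNF receptor complex that can pair with RIPK3 in the necrosome. Normalised values were 66.3, 32.8 and 32.9 in control replicates 1, 3 and 5, and 53.1, 48.1, 55.2 and 50 in DOX replicates 1 to 4. Control replicate 1 was the highest of all 13 libraries and the other control libraries were the lowest. The values were 46.2, 50.1 and 46.7 in DOX+IL-17A replicates 2, 3 and 5, and 42.9, 35.8 and 51.2 in IL-17A replicates 2, 3 and 5. The log2 fold change was 0.30 (SE 0.24) with DOX against control and -0.11 (SE 0.24) with DOX+IL-17A against DOX, and neither was called. Without control replicate 1 the first of these was 0.64 (limma adjusted p = 0.033, under 2-fold), and without control replicate 3 it was 0.14.

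*Ripk1* lies at chr13:34002363-34037147 on the plus strand and is overlapped by *Serpinb6a* and *Gm17083* on the minus strand and *Gm17084* on the plus strand. The strand setting of the read counting is not given in the sources used here, so reads of *Fadd*, *Mlkl* and *Ripk1* and of their antisense neighbours may not be separated, and the values of these genes are uncertain to that extent, as are those of genes overlapped on their own strand. RefSeq promoters were found for 7 of the 10 named genes, 8 promoters in all because *Ripk1* has a pair of start sites. The ISRE core was found in a single one of the 8, that of the downstream *Ripk1* start site. The unit of the p53 site and the NF-kB site were found in 0 of 8. The 70 bases that end with the match, at chr13:34002809-34002878 (GRCm38.p6, plus strand), are shown with the match in capitals to set this promoter beside that of *Fas*.
Ripk1: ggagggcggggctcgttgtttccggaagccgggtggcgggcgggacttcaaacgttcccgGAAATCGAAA
The match begins 5 bases before that start site. It is a description of the sequence and not of binding, and *Ripk1* was not called in any comparison.

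*Zbp1* encodes the sensor of Z-form nucleic acids. Its normalised values were 2.03, 6.45 and 5.89 in control replicates 1, 3 and 5, from 12, 106 and 50 reads. They were 79.2, 91.1, 108.8 and 116.2 in DOX replicates 1 to 4. Every DOX library was more than 10 times every control library. The values were 30.5, 32.6 and 25.7 in DOX+IL-17A replicates 2, 3 and 5, and 6.31, 5.50 and 6.48 in IL-17A replicates 2, 3 and 5. The 3 DOX+IL-17A libraries stood between the groups, below all 4 DOX libraries and above all 6 libraries without DOX, while the IL-17A and control libraries overlapped. The group means were 4.79 ± 2.41 (SD, n = 3) in control, 6.10 ± 0.522 (SD, n = 3) in IL-17A, 29.6 ± 3.55 (SD, n = 3) in DOX+IL-17A and 98.8 ± 16.8 (SD, n = 4) in DOX.

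*Zbp1* rose with DOX against control by 4.20 on the log2 scale (SE 0.30, limma adjusted p = 1.9e-06), with a ratio of means of 20.6. It rose with DOX+IL-17A against control by 2.50 (SE 0.32, adjusted p = 0.00026), with a ratio of 6.17. It rose with DOX+IL-17A against IL-17A by 2.10 (SE 0.32, adjusted p = 0.0012). These calls were kept without any single library. With IL-17A against control the log2 fold change was 0.40 (95% confidence interval -0.29 to 1.08) and was not called.

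With DOX+IL-17A against DOX, *Zbp1* fell by 1.70 on the log2 scale (SE 0.30, limma adjusted p = 0.02), and the mean with both agents was 0.299 of the mean with DOX. The groups did not overlap (exact permutation p = 0.0571, 2-sided, the smallest that 4 against 3 allows). The log2 fold change stayed between -1.80 and -1.60 without any single library. The adjusted p was 0.11 without DOX replicate 3, 0.11 without DOX replicate 4, 0.079 without DOX+IL-17A replicate 2, 0.10 without DOX+IL-17A replicate 3 and 0.11 without DOX+IL-17A replicate 5, which ends the call, and it was 0.059 with a pseudocount of 0.1. The interaction of DOX and IL-17A in *Zbp1* was -2.10 (SE 0.44), which did not pass the adjustment over all genes in limma (adjusted p = 0.25), and DESeq2 gave -2.00 (adjusted p = 0.0068). *Zbp1* lies at chr2:173206612-173218923 on the minus strand.

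**Figure D2:**
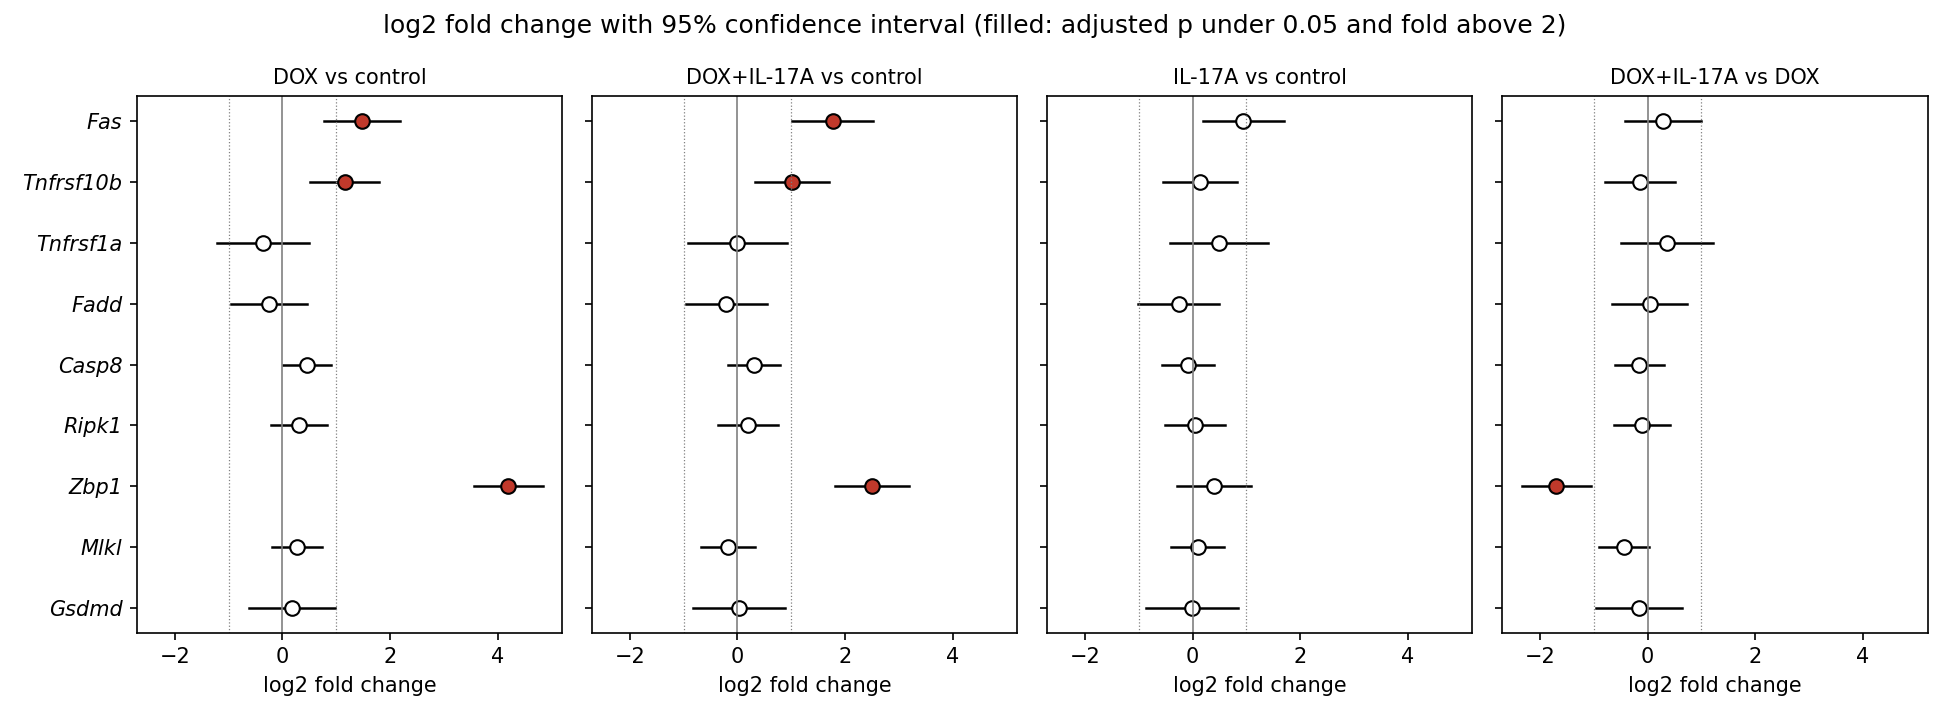
log2 fold change (horizontal axis) of the 9 genes with its 95% confidence interval from limma in 4 comparisons, filled for called genes (dotted lines mark a 2-fold change). *Zbp1* is called in the comparisons with DOX against control (4.20), DOX+IL-17A against control (2.50) and DOX+IL-17A against DOX (-1.70), while the intervals of *Mlkl* and *Gsdmd* include 0 throughout.

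The 5 tested genes whose profile over the 13 libraries was most like that of *Zbp1* were *Gbp4*, *Gbp6*, *Cmpk2*, *Phf11d* and *Gbp5*, with root mean square differences of 0.466, 0.491, 0.521, 0.559 and 0.559 between centred log2 profiles. *Gbp4* had group means of 16.0 in control, 165.5 in DOX, 47.7 in DOX+IL-17A and 16.0 in IL-17A. *Gbp6* had means of 7.46, 102.2, 40.8 and 11.6 in the same order, and *Cmpk2* 4.23, 44.1, 14.4 and 4.07. Each of the 5 had its highest mean in DOX and its second highest in DOX+IL-17A. For *Fas* the most similar profiles were those of *Plscr2* (0.28), *Cklf* (0.298), *Alkbh4* (0.302), *Klra2* (0.312) and *Tipin* (0.329). For *Tnfrsf10b* they were those of *Med28* (0.195), *Pnp* (0.212), *Espl1* (0.217), *Sec22b* (0.222) and *Psmd8* (0.223). The likeness covers 13 libraries of 4 conditions and is a description of these profiles.

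**Figure D3:**
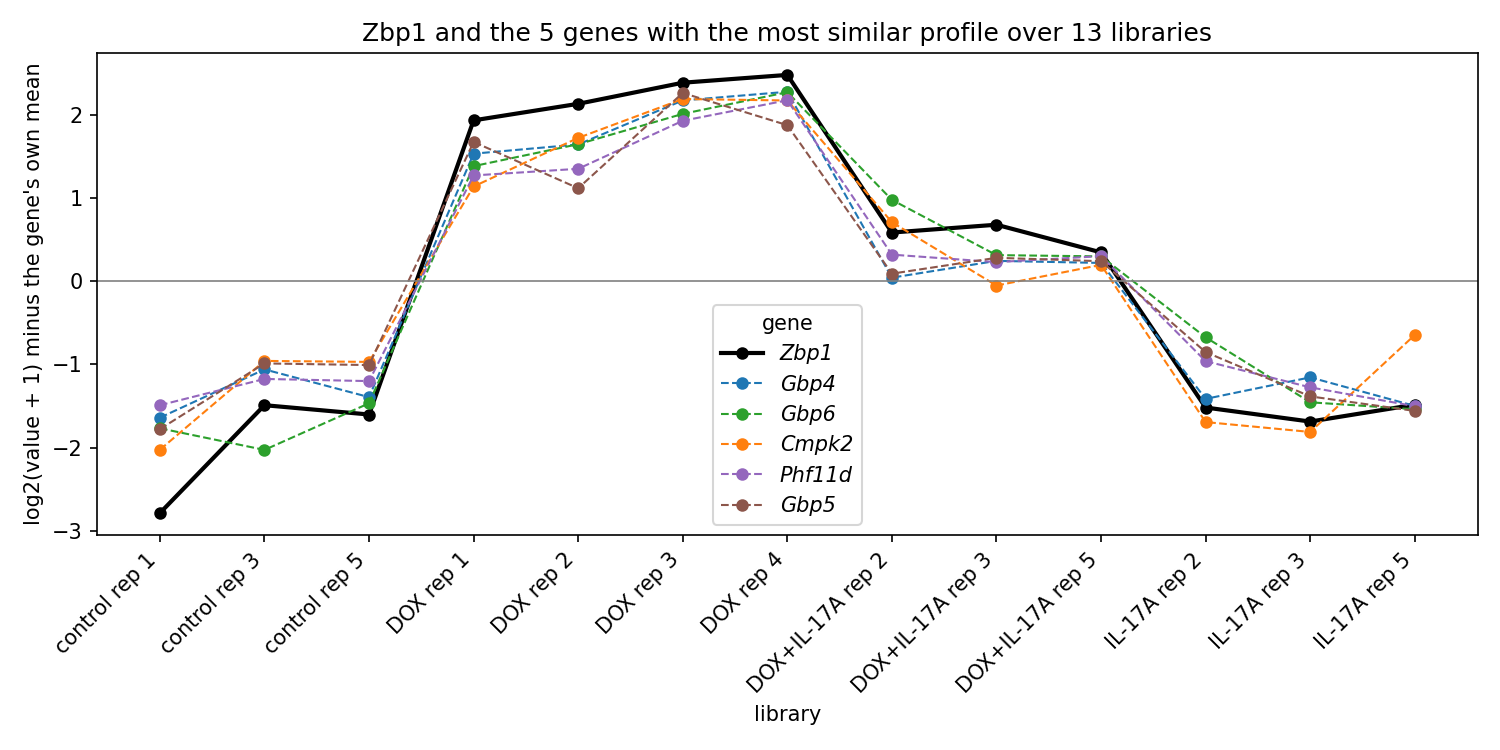
log2(value + 1) minus each gene's own mean (vertical axis) in the 13 libraries (horizontal axis) for *Zbp1*, drawn solid, and the 5 genes with the most similar profiles, drawn dashed. The 4 DOX libraries are the highest for all 6 genes, and the 3 DOX+IL-17A libraries lie between these and the libraries without DOX.

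*Mlkl* encodes the pseudokinase that breaches the membrane in necroptosis. In normalised values it was at 35.4, 25.2 and 26.8 in control replicates 1, 3 and 5, and 35.8, 31.1, 32.2 and 41.6 in DOX replicates 1 to 4. Control replicate 1 lay among the DOX libraries. The values were 25.6, 23.5 and 27.1 in DOX+IL-17A replicates 2, 3 and 5, and 27.5, 28.9 and 36.7 in IL-17A replicates 2, 3 and 5. No DOX+IL-17A library reached the lowest DOX library (exact permutation p = 0.0571, 2-sided, the smallest possible) or the lowest IL-17A library.

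The log2 fold change of *Mlkl* with DOX+IL-17A against DOX was -0.45 (95% confidence interval -0.91 to 0.02, limma adjusted p = 0.83) and was not called. With DOX against control it was 0.27 (SE 0.22, adjusted p = 0.39). The most similar profiles to *Mlkl* were those of *Nub1* (root mean square difference 0.122), *Rbbp6* (0.14), *Rad50* (0.149), *Zc3hav1* (0.158) and *Otud7b* (0.168). *Mlkl* lies at chr8:111311797-111338177 on the minus strand and is overlapped by *Gm45712* on the opposite strand.

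*Gsdmd* encodes gasdermin D. Its normalised values were 6.77, 5.60 and 6.25 in control replicates 1, 3 and 5, and 5.07, 4.60, 10.2 and 10.7 in DOX replicates 1 to 4. A pair of DOX libraries lay below all control libraries and the other pair above them. The values were 4.70, 5.86 and 8.93 in DOX+IL-17A replicates 2, 3 and 5, and 3.49, 7.07 and 8.94 in IL-17A replicates 2, 3 and 5. The 4 groups overlapped. Its log2 fold change was 0.19 (SE 0.38) with DOX against control and -0.16 (SE 0.38) with DOX+IL-17A against DOX, and neither was called. The gene lies at chr15:75862327-75867408 on the plus strand.

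The other genes of these pathways were taken from 8 lists of 99 genes, of which 90 were measured and 88 tested. With DOX against control 19 of 88 were called higher and 6 lower, beside 9.15% and 6.18% of all tested genes, with a median log2 fold change of 0.29, against 0.09 over all tested genes. For DOX+IL-17A against control 12 were called higher and 5 lower, beside 6.95% and 5.95% of all genes, with a median of 0.21 against 0.04. For DOX+IL-17A against DOX 1 was called higher and 0 lower by limma, beside 0.114% and 0.325% of all genes, with a median of -0.04 against -0.03. For DOX+IL-17A against IL-17A 10 were called higher and 5 lower, beside 4.92% of all genes higher and 4.92% lower, with a median of 0.16 against 0.02. With IL-17A against control limma called 0 of 88 (5 at an unadjusted p under 0.05), voom with limma and edgeR called 0, and DESeq2 called 1, *Il1a*.

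**Figure D4:**
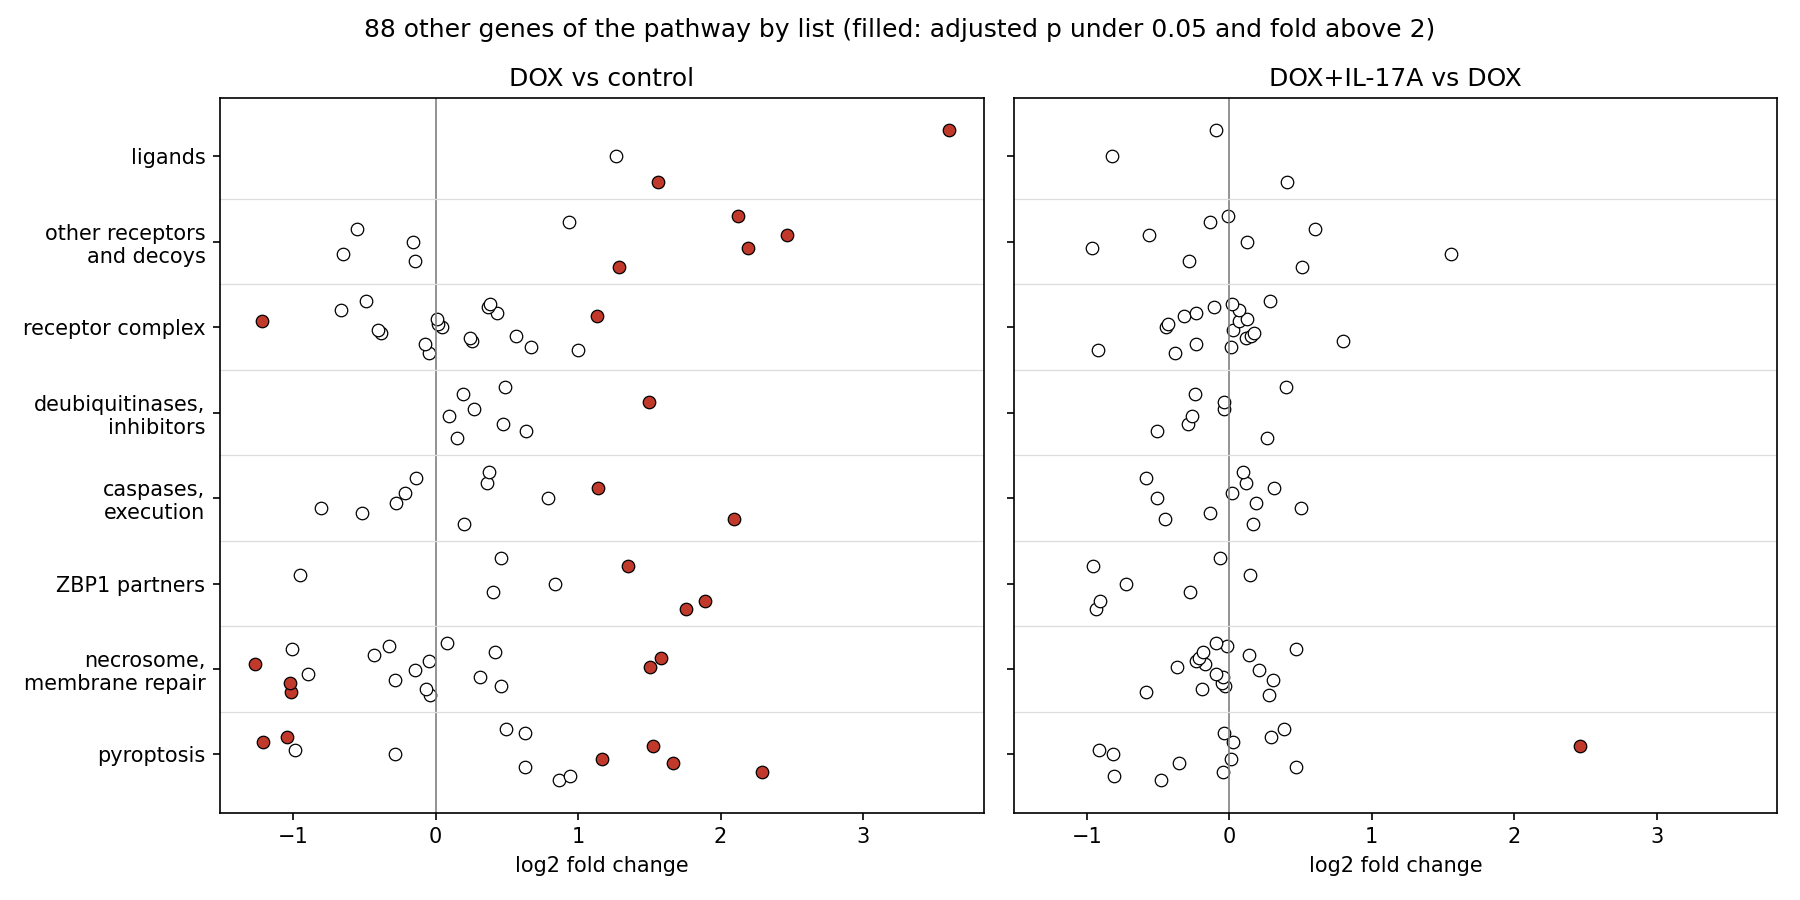
log2 fold change (horizontal axis) of the 88 other tested genes in 8 lists, 1 point per gene, for DOX against control and for DOX+IL-17A against DOX, filled for called genes. In DOX against control 25 points are filled, 19 of them to the right of 0, and in DOX+IL-17A against DOX a single point, *Il1a* at 2.46, is filled.

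Of the ligands, 3 of 7 were measured, and *Fasl* was not analysed here. *Tnfsf15*, a TNF family cytokine, was at 0.707 to 7.78 in control, 28.8 to 53.3 in DOX, 30.4 to 39.0 in DOX+IL-17A and 0.943 to 2.70 in IL-17A, and it rose with DOX against control by 3.61 (SE 0.47, limma adjusted p = 0.00014) and with DOX+IL-17A against control by 3.51 (SE 0.50, adjusted p = 0.00042). Both calls were kept without any single library, with values of 3.16 to 4.34 and 3.06 to 4.25, highest without control replicate 1. *Tnf* had 0 reads in all 3 control libraries, 9 to 28 reads in DOX (0.985 to 2.52) and 19 to 36 in DOX+IL-17A (1.89 to 5.32), and it rose in both comparisons with control (adjusted p = 0.0062 and 0.0031). A count of 0 reads allows a normalised value of up to 0.183 to 0.507 in those control libraries, for counting error only. *Tnfsf10*, which encodes TRAIL, was at 0 to 0.183 in control and 0.483 to 4.27 in DOX and was not called by limma (adjusted p = 0.059), while DESeq2 called it higher.

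Of the other death receptors, decoys and TNF receptors, 9 of 10 were measured, and 4 were called higher with DOX against control and 3 with DOX+IL-17A against control. *Tnfrsf21*, death receptor 6, was at 1.18 to 4.36 in control, 15.9 to 32.2 in DOX, 12.2 to 15.9 in DOX+IL-17A and 4.28 to 10.1 in IL-17A, and rose with DOX by 2.46 (SE 0.38, limma adjusted p = 0.00061). *Tnfrsf26*, a receptor without a death domain, was at 0.507 to 1.65 in control and 4.35 to 9.53 in DOX and rose by 2.13 (SE 0.40, adjusted p = 0.002). *Cd40* was at 1.77 to 2.25 in control and 4.67 to 8.85 in DOX and rose by 1.29 (SE 0.36, adjusted p = 0.019), with an adjusted p of 0.065, 0.051 and 0.06 without control replicate 5, DOX replicate 3 and DOX replicate 4. *Tnfrsf12a*, the TWEAK receptor, was at 1.52 to 17.9 in control and 21.6 to 46.9 in DOX and rose by 2.20 (SE 0.65, adjusted p = 0.025). The value was 1.53 to 2.98 when a single library was left out. This call was lost without control replicate 1 or 5 or DOX replicate 2 or 3 (adjusted p = 0.088, 0.074, 0.069 and 0.05 in that order). It was also lost with voom with limma (adjusted p = 0.093) and edgeR (0.076).

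In the TNF receptor complex, 19 of 19 genes were measured, with 1 called higher and 1 lower with DOX against control and 1 higher with DOX+IL-17A against control. *Tank*, an adaptor of the kinases TBK1 and IKKε, was at 16.9 to 27.4 in control and 44.1 to 51.7 in DOX and rose by 1.13 (SE 0.28, limma adjusted p = 0.01), falling under the 2-fold threshold without control replicate 1 (0.96). *Tab1*, an activator of the kinase TAK1, was at 8.95 to 26.4 in control and 3.08 to 9.96 in DOX, with overlap, and fell by 1.22 (SE 0.40, adjusted p = 0.041), a call lost without any one of control replicates 1 and 5, DOX replicates 1, 3 and 4 or DOX+IL-17A replicate 3 (adjusted p = 0.15, 0.088, 0.073, 0.12, 0.07 and 0.051 in that order). It was also lost with voom with limma (adjusted p = 0.071), scaling by library size (0.062) and a fit of only these groups (0.076). *Ikbke*, which encodes IKKε, was at 7.18 to 10.8 in control, 7.77 to 13.6 in DOX and 17.4 to 22.3 in DOX+IL-17A and rose with DOX+IL-17A against control by 1.06 (SE 0.33, adjusted p = 0.036). That call was lost without control replicate 3 or 5 or DOX+IL-17A replicate 2, 3 or 5 (adjusted p = 0.096, 0.054, 0.062, 0.11 and 0.067 in that order), and in a fit of only these groups (0.11). *Birc3*, which encodes the ubiquitin ligase cIAP2, was at 1.52 to 11.6 in control, 8.85 to 20 in DOX and 5.11 to 6.85 in DOX+IL-17A and was not called.

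Among the 8 deubiquitinases and inhibitors of the complex, *Spata2*, the partner of the deubiquitinase CYLD, was at 18.1 to 36.7 in control, 70.4 to 91.4 in DOX and 77 to 81.6 in DOX+IL-17A, and it rose with DOX by 1.5 (SE 0.24, limma adjusted p = 0.00074) and with DOX+IL-17A by 1.46 (SE 0.26, adjusted p = 0.0018). It was the 1 gene of that list called. *Cflar*, which encodes the caspase-8 inhibitor cFLIP, was at 50.2 to 66.5 in control, 55.8 to 67.9 in DOX and 72.3 to 81.2 in DOX+IL-17A, and *Tnfaip3*, which encodes A20, was at 19.3 to 22.5 in control, 18.04 to 51.4 in DOX and 8.86 to 38.6 in DOX+IL-17A. Neither was called.

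Of 12 genes of caspases and apoptosis execution, 11 were tested and 2 were called higher with DOX against control. *Bid*, the BH3 protein that caspase-8 cleaves, was at 14.7 to 50.6 in control, 89.8 to 165 in DOX, 27.2 to 154 in DOX+IL-17A and 27.0 to 185 in IL-17A, with replicate 5 the lowest library in both conditions with IL-17A. It rose with DOX by 2.10 (SE 0.62, limma adjusted p = 0.025), a call lost without control replicate 1 or 5 or DOX replicate 1 or 2 (adjusted p = 0.068, 0.073, 0.051 and 0.065 in that order), and with voom with limma (0.056). *Cycs*, cytochrome c, was at 97.8 to 299 in control, 299 to 367 in DOX and 378 to 452 in DOX+IL-17A, with control replicate 1 among the DOX libraries. It rose with DOX by 1.14 (SE 0.29, adjusted p = 0.012) and with DOX+IL-17A by 1.46 (SE 0.31, adjusted p = 0.0058). The first of these was lost without control replicate 3 (0.95, under 2-fold) or control replicate 5 (0.83, adjusted p = 0.07), and fell under 2-fold with edgeR (0.96) and DESeq2 (0.91). The second was lost in a fit of only these groups (adjusted p = 0.061).

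A list of 7 genes held partners of ZBP1 signalling, namely RHIM adaptors, sensors and interferon response genes, and limma called 3 of them higher with DOX against control and 0 with DOX+IL-17A against control. In the latter comparison *Eif2ak2* had a limma adjusted p of 0.027 with a fold change just under 2, and voom with limma called it higher. *Eif2ak2*, the double-stranded RNA kinase PKR, was at 38.1 to 71.6 in control, 158 to 233 in DOX, 71.0 to 129 in DOX+IL-17A and 37.1 to 59.4 in IL-17A, and rose with DOX by 1.89 (SE 0.27, limma adjusted p = 0.00028). *Adar*, the RNA editing enzyme whose Z-form binding domain limits ZBP1, was at 18.1 to 20.47 in control, 55.0 to 79.3 in DOX, 23.3 to 50.1 in DOX+IL-17A and 13.2 to 21.7 in IL-17A, and rose with DOX by 1.76 (SE 0.27, adjusted p = 0.00056). *Tlr3*, a receptor of double-stranded RNA, was at 33.5 to 42.9 in control, 95.1 to 117 in DOX, 47.2 to 58.3 in DOX+IL-17A and 30 to 36.3 in IL-17A, and rose with DOX by 1.35 (SE 0.19, adjusted p = 0.00025).

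These 3 genes were picked for calls that rest on the same DOX libraries. In each of them the highest DOX+IL-17A library stood under the lowest DOX library. The share of all tested genes with such a gap was not counted, so nothing is read from it. The log2 fold change with DOX+IL-17A against DOX was -0.96 in *Tlr3* (SE 0.19, limma adjusted p = 0.041), -0.94 in *Adar* (SE 0.27, adjusted p = 0.25) and -0.91 in *Eif2ak2* (SE 0.27, adjusted p = 0.27). None of the 3 was called, since the *Tlr3* value was under the 2-fold threshold. *Ticam1*, which encodes the TLR3 adaptor TRIF, was at 5.19 to 14.9 in control and 2.74 to 6.26 in DOX and was not called.

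Of the 18 necrosome modifiers and membrane repair genes, 2 were called higher and 3 lower with DOX against control, and 1 higher and 3 lower with DOX+IL-17A against control. *Pgam5*, a mitochondrial phosphatase, was at 20.47 to 46.3 in control, 94.1 to 113 in DOX and 78.2 to 103 in DOX+IL-17A, and rose with DOX by 1.58 (SE 0.30, limma adjusted p = 0.0023) and with DOX+IL-17A by 1.37 (SE 0.33, adjusted p = 0.01). *Chmp2a*, a subunit of the ESCRT machinery that repairs membranes, was at 43.4 to 74.3 in control, 21.4 to 33.8 in DOX and 15.5 to 19.6 in DOX+IL-17A, and fell by 1.02 with DOX (SE 0.24, adjusted p = 0.0082) and by 1.60 with DOX+IL-17A (SE 0.26, adjusted p = 0.00098). The first value is at the 2-fold threshold and was under it without control replicate 1 (-0.81), DOX replicate 3 (-0.97) or DOX replicate 4 (-0.91) and when scaled by library size (-0.84).

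*Itpk1*, an inositol phosphate kinase, was at 15.9 to 42.0 in control, 7.33 to 18.5 in DOX and 6.06 to 12.5 in DOX+IL-17A, with overlap between control and DOX. It fell by 1.27 with DOX (SE 0.39, limma adjusted p = 0.029) and by 1.44 with DOX+IL-17A (SE 0.41, adjusted p = 0.026). The first call was lost without control replicate 1 or 5 or DOX replicate 1, 3 or 4 (adjusted p = 0.098, 0.074, 0.063, 0.072 and 0.082 in that order), and the second without control replicate 1 or 5 or DOX+IL-17A replicate 2 or 3 (adjusted p = 0.067, 0.069, 0.06 and 0.11). Fits of only the groups compared lost both (adjusted p = 0.051 and 0.087), and voom with limma lost the second (0.051). *Flot1*, a membrane scaffold protein, was at 24.4 to 56.2 in control, 17.8 to 21.5 in DOX and 13.1 to 24.5 in DOX+IL-17A, with overlap between control and DOX+IL-17A. It fell by 1.02 (SE 0.30, adjusted p = 0.023) and 1.07 (SE 0.32, adjusted p = 0.029). Its first call was lost without control replicate 3 or 5 or DOX replicate 1 or 4 (adjusted p = 0.066, 0.11, 0.05 and 0.057 in that order), and the second without control replicate 3 or 5 or DOX+IL-17A replicate 2 or 3 (adjusted p = 0.078, 0.12, 0.12 and 0.063). Scaling by library size lost both (adjusted p = 0.052 and 0.06), and a fit of only the groups compared lost the second (0.14).

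Of 18 pyroptosis genes 14 were measured and 13 tested, with 4 called higher and 2 lower with DOX against control and 3 higher and 2 lower with DOX+IL-17A against control. These counts include calls of *Gsdmc2*, *Gsdmc3* and *Il1b* with DOX against control. They also include *Gsdmc2* and *Il1b* with DOX+IL-17A against control, and these genes are not described further. *Casp4*, caspase-11 in mice, was at 0.0609 to 1.01 in control, 3.94 to 7.96 in DOX and 3.77 to 6.95 in DOX+IL-17A, and rose with DOX by 2.29 (SE 0.39, limma adjusted p = 0.001). Control libraries held 1 to 6 reads of *Casp4*, and the ratio of means was 14.4. The log2 value was 2.18 to 4.72 over the alternatives other than removal of a single library. *Nek7*, a partner of NLRP3, was at 96.9 to 140 in control and 47.0 to 62.1 in DOX, and fell by 1.05 (SE 0.20, adjusted p = 0.0021), to under the 2-fold threshold without control replicate 1 (-0.88) or DOX replicate 3 (-0.99) and when scaled by library size (-0.87). *Il18* was at 7.31 to 10.8 in control, 3.22 to 4.20 in DOX and 0.818 to 2.58 in DOX+IL-17A, and fell by 1.90 with DOX+IL-17A against control (SE 0.37, adjusted p = 0.0032). *Casp1* was at 0 to 2.83 in control and 0.876 to 4.33 in DOX and was not called.

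*Il1a*, which encodes the alarmin IL-1α, was at 5.84 to 6.60 in control, 7.13 to 42.6 in DOX, 60.4 to 162 in DOX+IL-17A and 24.5 to 57.0 in IL-17A. It rose with DOX+IL-17A against control by 3.98 (SE 0.54, limma adjusted p = 0.00033), a call kept without any single library. It rose with DOX+IL-17A against DOX by 2.46 (SE 0.50, adjusted p = 0.042), and with DOX against control by 1.52 (SE 0.50, adjusted p = 0.041). The call against DOX was lost without control replicate 5, DOX replicate 3 or 4, DOX+IL-17A replicate 2, 3 or 5, or IL-17A replicate 2 or 3 (adjusted p = 0.061, 0.14, 0.19, 0.23, 0.29, 0.062, 0.062 and 0.068 in that order). It was also lost with edgeR (adjusted p = 0.062), scaling by library size (0.055) and a pseudocount of 0.1 (0.071). The call with DOX against control was lost without control replicate 1, 3 or 5, DOX replicate 1, 2 or 4, DOX+IL-17A replicate 3 or IL-17A replicate 3 (adjusted p = 0.056, 0.07, 0.082, 0.11, 0.12, 0.053, 0.052 and 0.051 in that order), and with voom with limma (0.1) and a fit of only these groups (0.069). *Il1a* and *Zbp1* were the 2 genes that limma called between DOX+IL-17A and DOX among the 9 genes and the 88 others of the lists, *Il1a* higher and *Zbp1* lower with IL-17A. The edgeR fit called *Zbp1* but 0 of the 88.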

How the data were processed

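The medium is DMEM/F12 in the sample labels and RPMI in the methods. RNA of 4T1-Thy1.1 cells was sequenced as 3' mRNA libraries in 4 conditions. The authors list FastQC, Trimmomatic, STAR, featureCounts and the mm10 build. Each deposited value is a normalized signal of 1 gene in 1 library. The scaling factors implied by these values (0.8851 to 1.109) were compared with TMM factors recomputed from the reads (0.8851 to 1.109). The table has 13223 entries, 1 of them an identical repeat that was dropped. Values were whole multiples of 1 read in every library (100% within 0.1 read), so reads could be recovered. Libraries held 4445592 to 16930600 reads. The methods speak of biological replicates in general, without saying for these libraries whether each came from its own culture, so p-values measure the spread between these libraries, which may be technical. Reads carry no molecular identifiers, so limits for a count of 0 (3 reads) cover counting error only.

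Genes kept by filterByExpr on the recovered reads (12319) were fitted in limma (trend) as log2(value + 1) by condition alone, leaving 9 residual degrees of freedom. P-values were adjusted by Benjamini-Hochberg over all tested genes. Calls needed an adjusted p under 0.05 and a fold above 2, while the interaction of DOX and IL-17A needed only the adjusted p. Single values were compared by exact permutation tests.

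Alternatives were voom with limma, edgeR's quasi-likelihood test and DESeq2 on recovered reads (calling 1692, 1756 and 2121 genes with DOX against control, against 1888), no low-read filter, a filter at a mean of 10 reads, library-size scaling, 0.1 as pseudocount, fits limited to the compared groups, a replicate block, calls by adjusted p only, and removal of every library in turn. Leaving out control replicate 1 and IL-17A replicate 5 together was added after the data were seen. Genes picked for description are the members, up to 4 called genes per list by smallest unadjusted p in limma, and 12 genes named in any case. Added to these are the 5 most similar profiles of *Zbp1*, *Mlkl*, *Fas* and *Tnfrsf10b* by root mean square difference. The members and lists were chosen with earlier results of these data known. Gene positions are from GENCODE and promoters from RefSeq. Tests were tried on simulated data. Software was limma 3.58.1 and DESeq2 1.42.0 with edgeR 4.0.16 in R 4.3.3, python 3.11.15 and matplotlib were used.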

Additional observations from a re-analysis of the deposited data

Results flagged for a closer look

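In the group of 4 DOX libraries, a value that stood far from the other 3 was seen in 4 of 39 genes checked, and about 1 in 20 such groups is expected to show this by chance. *Fadd* had a normalised value of 6.28 in DOX replicate 1, where the others were at 10.1 to 10.6. The other 3 genes all stood apart in DOX replicate 2: *Tnfrsf12a* with 46.9 (others 21.6 to 25.6), *Tnfaip3* with 51.4 (others 18.04 to 20.9) and *Itpk1* with 18.5 (others 7.33 to 9.18).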

How the results depend on the processing

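Of 8 calls of the 9 genes, 5 were kept under all 23 alternatives and 3 were lost under some, the DOX+IL-17A against DOX call of *Zbp1* and both calls of *Tnfrsf10b*. Of 37 calls of other pathway genes picked for description, 20 were kept under all and 17 were lost under some, and 0 of these calls changed sign. With DOX against control, the alternatives other than removal of a single library gave *Tnfsf15* values of 3.31 to 4.57. The same alternatives gave 1.92 to 2.99 for *Tnfrsf26* and 1.47 to 2.27 for *Bid*. The count of called members with DOX+IL-17A against DOX (1) was 0 with a pseudocount of 0.1 and 0 to 1 without a single library. With DOX+IL-17A against IL-17A it was 2 when scaled by library size only, which added *Tnfrsf10b*, and for the interaction it was 1 with DESeq2.

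Among uncalled values, *Tnfrsf1a* with DOX against control was -1.07 to 0.02 without a single library. *Zbp1* with IL-17A against control was -0.017 to 0.63, and -0.056 without control replicate 1 and IL-17A replicate 5 together. With DOX+IL-17A against DOX, *Fadd* was -0.12 to 0.23 and *Gsdmd* -0.386 to 0.013 without a single library. The cause was not tested.

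The numbers were not taken to pair the libraries, since not every same-numbered pair correlated over 0.1: deviations correlated at a mean of 0.151 in 13 such pairs (-0.175 to 0.491, 8 over 0.1) and of -0.037 in 50 other pairs (13 over 0.1), and 7 of 13 libraries correlated best with their own number. With the replicate block *Ripk1* with DOX+IL-17A against DOX was 0.039, *Tnfrsf10b* with DOX+IL-17A against control was 0.75 (adjusted p = 0.13), the members called were 3 with DOX against control, 2 with DOX+IL-17A against control, 0 with IL-17A against control, 1 with DOX+IL-17A against DOX and 1 with DOX+IL-17A against IL-17A, and all genes called with DOX+IL-17A against DOX were 14 against 54. The block also ended the DOX calls of *Tnf* (adjusted p = 0.052), *Tank*, *Itpk1*, *Flot1*, *Nek7* and *Il1a*, the *Il1a* call against DOX and the *Ptprc* call.

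Scaling by library size shifted the all-gene median of log2 fold changes from 0.09 to 0.24 with DOX against control, from 0.04 to 0.20 with DOX+IL-17A against control and from 0.02 to 0.22 with DOX+IL-17A against IL-17A. All genes called with DOX+IL-17A against DOX were 35 with edgeR, 93 with DESeq2 and 1 to 88 without a single library. With only the groups compared they were 599 for DOX+IL-17A against control (1589 in the full fit). For DOX+IL-17A against IL-17A they were 1212 in the full fit, 689 without IL-17A replicate 3 and 769 without IL-17A replicate 5. With IL-17A against control they were 1 by limma, 15 by DESeq2 and 0 by voom with limma and by edgeR. In limma they were 2 without control replicate 1, and 5 without control replicate 1 and IL-17A replicate 5 together. Without any other single library they were 0. For the interaction they were 0 by limma, voom with limma and edgeR and 18 by DESeq2. Groups of 3 and 4 libraries may limit which moderate differences can pass, and whether they did so here was not tested.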
